A study of Mus musculus with 6 samples.

Results

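Of the 559 genes in the deposited expression table of this series, 5 were taken by their gene symbols: Cpt1a, Slc25a20, Etfb, Acot1 and Acad11. They were grouped under the heading of fatty acid entry into mitochondria and oxidation, which does not describe each of them equally well. All 5 were found. The libraries came from natural killer (NK) cells, cytotoxic lymphocytes purified from the spleens of C57BL/6 mice. There were 3 oleic acid (OA) libraries, from cells given 0.2 mM OA for 36 h, and 3 control libraries, from cells kept for 36 h without OA. OA is a monounsaturated fatty acid. According to the labels the treatment was carried out a single time and nothing states that the libraries are separate cultures or mice, so every p-value below measures the spread between these libraries, which may be technical. The question was whether transcript levels of NK cells differ after OA.

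Long-chain fatty acids are activated to acyl-CoA in the cytosol and cannot cross the inner mitochondrial membrane in that form. Cpt1a encodes carnitine palmitoyltransferase 1A of the outer mitochondrial membrane, which moves the acyl group onto carnitine and is the rate-limiting step of entry, and Slc25a20 encodes the carrier that exchanges acylcarnitine for carnitine across the inner membrane. Inside, acyl-CoA dehydrogenases open each round of beta-oxidation and hand electrons to the electron transfer flavoprotein, whose beta subunit is encoded by Etfb. The Acad11 product belongs to the family of acyl-CoA dehydrogenases, and where in the cell it acts was not examined here. Acot1 encodes an acyl-CoA thioesterase that releases free fatty acid from acyl-CoA; its product is cytosolic in mouse, so the name mitochondrial does not describe it. Many genes of this pathway are known targets of the peroxisome proliferator-activated receptors (PPARs), nuclear receptors that bind fatty acids and recognise a direct repeat of the half-site AGGTCA with a single base between the copies.

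All 5 genes lie on the plus strand of their chromosomes (build GRCm38, coordinates from GENCODE M21). Cpt1a spans chr19:3322334-3385733, and its main protein-coding transcript has 19 exons. Slc25a20 spans chr9:108662088-108684641 with 9 exons, and Acad11 spans chr9:104063377-104127725 with 20 exons. Etfb spans chr7:43444083-43457800 with 6 exons, and Acot1 spans chr12:84009490-84018371 with 3 exons. Every gene-level value below sums a whole gene.

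The start regions of Slc25a20 and Cpt1a, the carrier and the gate enzyme of the same entry step, are shown as RefSeq gives them for GRCm38.p6 (250 bases before the start site and 50 from it on, plus strand), because the 5 genes of this group stood higher in the same libraries. Capitals mark the 13 bases nearest to the repeat AGGTCANAGGTCA on either strand. In Slc25a20 (chr9:108661886-108662185) these bases lie 6 to 18 bases downstream of the start site, and in Cpt1a (chr19:3323051-3323350, a start site inside the annotated gene) they lie 146 to 134 bases upstream.
Slc25a20: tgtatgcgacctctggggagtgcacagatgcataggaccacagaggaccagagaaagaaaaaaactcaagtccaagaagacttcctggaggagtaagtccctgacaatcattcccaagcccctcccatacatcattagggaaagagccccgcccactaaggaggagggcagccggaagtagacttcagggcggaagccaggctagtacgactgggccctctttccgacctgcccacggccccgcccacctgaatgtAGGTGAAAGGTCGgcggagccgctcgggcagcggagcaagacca
Cpt1a: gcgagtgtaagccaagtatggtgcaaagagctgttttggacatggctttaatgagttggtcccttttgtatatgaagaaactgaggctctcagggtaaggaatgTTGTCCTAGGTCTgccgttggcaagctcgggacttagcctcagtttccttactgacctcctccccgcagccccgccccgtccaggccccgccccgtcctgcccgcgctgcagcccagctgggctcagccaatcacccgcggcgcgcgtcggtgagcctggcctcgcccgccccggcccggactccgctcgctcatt

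The nearest 13 bases of all 5 start regions are set side by side below to show how closely each comes to the repeat, read along the strand on which they were found, with the matching letters in capitals. They were found on the plus strand except in Etfb, where they lie on the minus strand.
Slc25a20: AGGTgAaAGGTCg
Etfb: AGGggAaAGGgCA
Cpt1a: ttGTCctAGGTCt
Acot1: ctGTCtgAGGcCA
Acad11: AaGaCtgAGGaCt

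Slc25a20 differed from the repeat at 2 of its 12 fixed letters, a closeness reached by 3.86% of the 32851 start regions of 300 bases in the RefSeq table. Etfb differed at 3 letters, and 24.6% of start regions differ at 3 or fewer. Cpt1a and Acot1 differed at 4 letters, which 79.8% of start regions reach, and Acad11 at 5, which 99.9% reach. A single half-site AGGTCA, which forms part of the repeat, occurred on either strand in Cpt1a and in 16.3% of all start regions, and in none of the other 4. The CCAAT box occurred in Cpt1a, Etfb, Acot1 and Acad11 but not in Slc25a20, against 37.4% of all start regions. These are matches of letters within these windows only.

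Transcripts of both genes of the carnitine entry step were higher in OA libraries. Values are given in TPM, a share of all transcripts in a library scaled for transcript length. Cpt1a stood at 86.78, 95.99 and 94.63 TPM in OA replicates 1, 2 and 3, against 74.21, 74.25 and 65.53 TPM in control replicates 1, 2 and 3. Every OA library lay above every control library, the nearest pair being 1.17-fold apart, and OA replicate 3 lay between the other two OA libraries. The means were 92.5 ± 4.97 TPM in OA and 71.3 ± 5.02 TPM in control (SD, n = 3 each). On log2(TPM + 1) the difference was 0.37 (SE 0.076, 95% interval 0.18 to 0.56, adjusted p = 0.026, limma).

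Slc25a20, the carrier gene, stood at 60.21, 62.79 and 77.93 TPM in OA replicates 1, 2 and 3, against 52.24, 54.11 and 47.37 TPM in control replicates 1, 2 and 3. The groups did not overlap, but OA replicate 3 was well above OA replicates 1 and 2, which lay close together and whose lower value was 1.11 times the highest control value. The means were 67.0 ± 9.57 TPM in OA and 51.2 ± 3.48 TPM in control, a 1.31-fold ratio, and the log2 difference was 0.37 (SE 0.117, 95% interval 0.077 to 0.67, adjusted p = 0.0376, limma). The log2 difference equalled that of Cpt1a to 2 decimals, while the spread among OA libraries was wider, with a coefficient of variation of 14.3% for Slc25a20 and 5.38% for Cpt1a.

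The gene of the electron acceptor had the highest level and the smallest change of the 5. Etfb stood at 184.45, 188.02 and 240.47 TPM in OA replicates 1, 2 and 3, against 167.86, 164.12 and 154.80 TPM in control replicates 1, 2 and 3. The groups did not overlap, the nearest pair being 1.10-fold apart, and OA replicate 3 again stood apart from the other two OA libraries. The means were 204 ± 31.4 TPM in OA and 162 ± 6.73 TPM in control. The log2 difference of 0.32 (SE 0.118, 95% interval 0.023 to 0.62) did not pass after adjustment (adjusted p = 0.0508, limma).

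Acad11, the acyl-CoA dehydrogenase gene, stood at 15.38, 16.23 and 20.30 TPM in OA replicates 1, 2 and 3, against 13.11, 12.72 and 12.37 TPM in control replicates 1, 2 and 3. The control libraries lay close together (coefficient of variation 2.91%), all OA libraries lay above them, and OA replicate 3 was once more the highest. The means were 17.3 ± 2.63 TPM in OA and 12.7 ± 0.37 TPM in control, and the log2 difference was 0.41 (SE 0.110, adjusted p = 0.0305, limma).

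Acot1, the thioesterase gene, had the largest ratio and the lowest level. It stood at 2.47, 2.20 and 4.29 TPM in OA replicates 1, 2 and 3, against 0.76, 0.78 and 1.49 TPM in control replicates 1, 2 and 3. The libraries with the number 3 were the highest of their group, and the groups did not overlap. The means were 2.99 ± 1.14 TPM in OA and 1.01 ± 0.416 TPM in control, a 2.96-fold ratio. The log2 difference on log2(TPM + 1) was 0.97 (SE 0.245, adjusted p = 0.0285, limma) and depended on the added constant, with 1.48 for a constant of 0.1 and 0.40 for a constant of 5. TPM does not carry the number of reads, and the sequencing depth behind this low level is unknown.

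**Figure D1:**
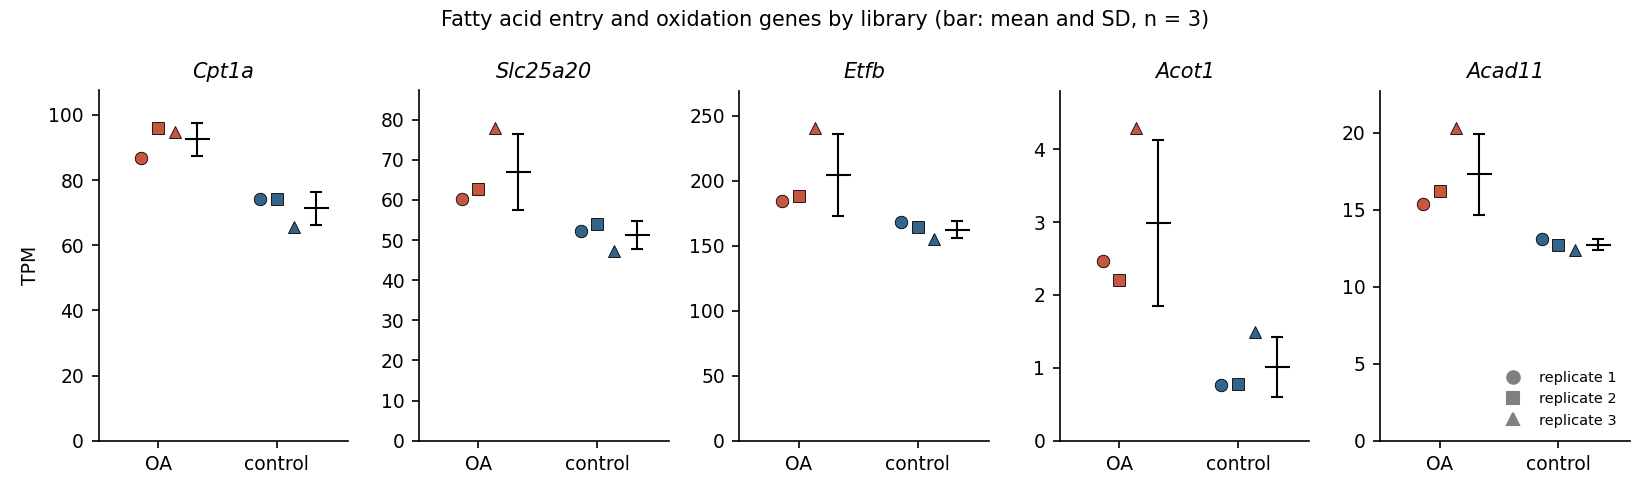
TPM of each gene (vertical axes, each from 0) in the 3 OA and the 3 control libraries, with circles, squares and triangles for replicates 1, 2 and 3 and a bar for the mean and SD. In each of the 5 panels all OA points lie above all control points, and OA replicate 3 is the highest point except for Cpt1a, where it stands at 94.63 TPM, below the 95.99 TPM of OA replicate 2.

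Counting could mix some of these genes with others. A window of 100 bases along the main Cpt1a or Slc25a20 transcript occurred in the transcripts of 0 other genes of GENCODE M21. Of such windows of Acot1, 21.9% also occurred in other genes, 16.5% in Acot2, the mitochondrial thioesterase gene beside it, so Acot1 values are uncertain where reads were split among the family. Of Acad11 windows, 10.5% were shared, mostly with Ackr4 on the opposite strand. Of Etfb windows, 65.2% were shared with Gm45233, a model on the same strand that runs through Etfb. Whether the counting used strand, and which annotation it used, was not given in the sources used here.

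In limma over all 559 listed genes, 4 of the 5 genes rose and 1, Etfb, did not pass at an adjusted p under 0.05. Of all listed genes 36% were called higher, and the median log2 difference was 0.37 for the 5 genes, 0.14 for all listed genes, which include those that fell, and 0.38 for the genes called higher. With libraries scaled to equal medians the same 4 were called, against 29% of listed genes; the share of higher among all called genes was then 66.4%, against 47.3% as deposited. For all 5 genes the OA and control libraries did not overlap, as for 45.1% of listed genes with OA above control. The table itself holds only genes with an authors' Q value under 0.05 for this same comparison, so neither count is independent of how the genes came to be listed. The same holds for every adjusted p from limma given here, which was adjusted over the listed genes only and not over all genes measured. For each of the 5 genes an exact two-sided permutation test on TPM gave p = 0.1, the smallest p that 3 against 3 libraries allow. In the authors' deposited table the Q values were 7.35e-06 for Cpt1a, 0.0221 for Slc25a20, 0.0297 for Acad11, 0.0419 for Etfb and 0.0499 for Acot1. Ordered by Q in the authors' deposited table, Cpt1a was number 32 and the other four stood between 397 and 558 of 559. Cpt1a had the lowest Q of the 5 in the authors' deposited table, while the ratios of mean TPM of Cpt1a, Slc25a20, Etfb and Acad11 lay between 1.26 and 1.36.

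OA replicate 3 carried transcripts of heart muscle, and OA replicate 2 carried fewer of them. Of 84 heart muscle markers, 33 were listed, among them Myh6, Myl2 and Tnnt2, which encode contractile proteins of heart muscle. Their summed level was 120.1, 646 and 7989 TPM in OA replicates 1, 2 and 3, against 91.7 to 118.8 TPM in the control libraries. OA replicate 1 was thus above the highest control sum too. In it, 17 of the 33 markers were higher than in every control library, as were 45.1% of all listed genes. In OA replicates 2 and 3, 33 of 33 markers were. Gja1, a gap junction gene that many cell types express, was the only 1 of the 33 called higher in limma. It stood at 56.79 TPM in OA replicate 1, against 39.91 to 48.57 TPM in the control libraries. Leaving out Gja1 alone was not among the planned comparisons. Without it, the sum in OA replicate 1 was 63.4 TPM. This lay inside the control range of 43.4 to 70.2 TPM, with 16 of the 32 markers above every control library, against the same 45.1%. Of the 33, Nppa and Casq2 were listed at 0 in at least 1 control library. Heart muscle relies on fatty acid oxidation. How strongly heart muscle expresses Cpt1a and each of the other genes taken here was not examined.

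Slc25a20, Etfb, Acot1 and Acad11 were highest in that same OA replicate 3, and Cpt1a was not. OA replicate 3 over the mean of OA replicates 1 and 2 was 1.04 for Cpt1a, 1.27 for Slc25a20, 1.28 for Acad11, 1.29 for Etfb and 1.84 for Acot1. Over the genes that limma called higher, the median of this ratio was 1.04 and the upper quartile 1.11, and 48.3% of them had a smaller ratio than Cpt1a, 94.5% a smaller ratio than Slc25a20 and 95.5% a smaller ratio than Etfb. That set holds only genes that passed in limma, which leaves out Etfb itself. Over the 287 genes with a positive fold change in the authors' deposited table, the median was 1.07 and the upper quartile 1.52, and 38.0% of genes had a smaller ratio than Cpt1a, 71.4% a smaller ratio than Slc25a20 and 72.5% a smaller ratio than Etfb. The part that heart muscle transcripts have in the values of OA replicate 3 was not tested.

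**Figure D2:**
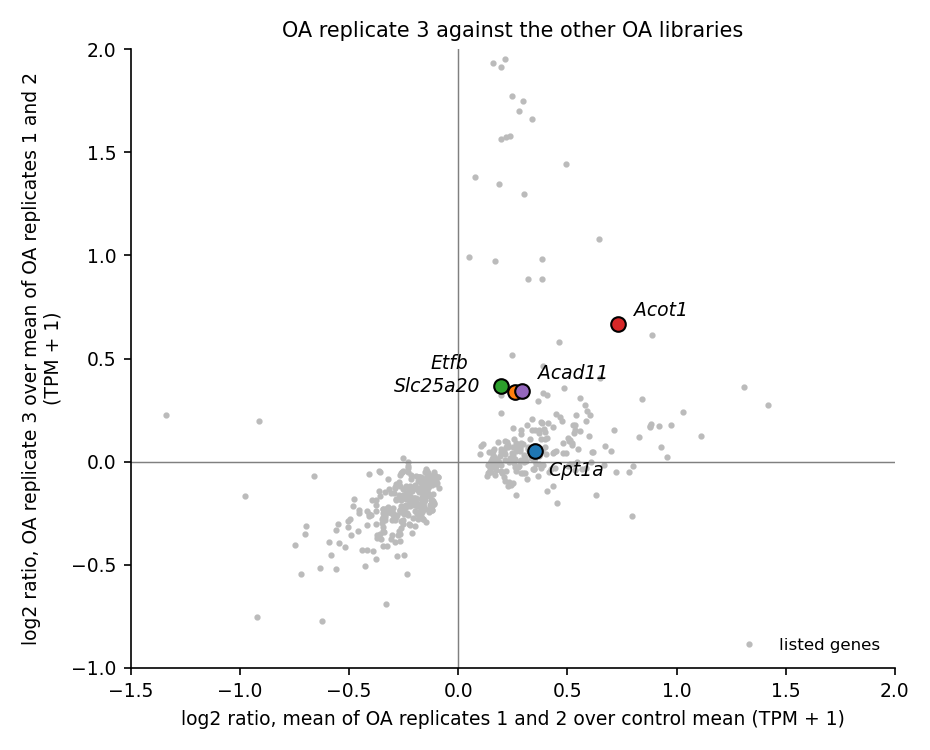
Each point is a listed gene: the horizontal axis gives the log2 ratio of the mean of OA replicates 1 and 2 to the control mean, and the vertical axis the log2 ratio of OA replicate 3 to the mean of OA replicates 1 and 2, both on TPM + 1. Cpt1a (vertical value 0.05) sits among the genes near 0 on the vertical axis, while Acad11, Slc25a20 and Etfb (0.34 to 0.37) and Acot1 (0.67) lie above it; 51 genes lie outside the axes.

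The 5 genes were higher in OA without OA replicate 3. OA replicate 2, with summed heart muscle markers of 646 TPM against 91.7 to 118.8 TPM in the control libraries, remained in the fits below. With OA replicate 3 left out, the mean of OA replicates 1 and 2 was 1.28 times the control mean for Cpt1a, 1.24 times for Acad11, 1.20 times for Slc25a20, 1.15 times for Etfb and 2.31 times for Acot1. All 5 genes rose in that fit (adjusted p between 0.0357 and 0.0457, limma), against 31.1% of all listed genes. The log2 differences became 0.35 for Cpt1a, 0.29 for Acad11, 0.26 for Slc25a20, 0.20 for Etfb and 0.75 for Acot1. OA replicates 1 and 2 by themselves kept 94.9% of the difference in mean TPM for Cpt1a, and 57.0% for Etfb. Without replicate 3 of both groups, all 5 genes rose as well, against 34% of all listed genes, with log2 differences of 0.29 for Cpt1a, 0.27 for Acad11, 0.21 for Slc25a20, 0.17 for Etfb and 0.91 for Acot1.

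OA replicate 1, the OA library with the lowest summed heart muscle markers, also lay above all control libraries for all 5 genes, as it did for 45.1% of listed genes. It stood at 1.22 times the control mean for Cpt1a, 1.21 times for Acad11, 1.18 times for Slc25a20, 1.14 times for Etfb and 2.45 times for Acot1. Set alone against the 3 control libraries, with its spread assumed to be that of the controls, OA replicate 1 gave log2 differences between 0.18 and 0.28 for Etfb, Slc25a20, Acad11 and Cpt1a and of 0.81 for Acot1. With 1 OA library there is no spread within OA, so that fit cannot say whether any of the 5 genes passes.

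**Figure D3:**
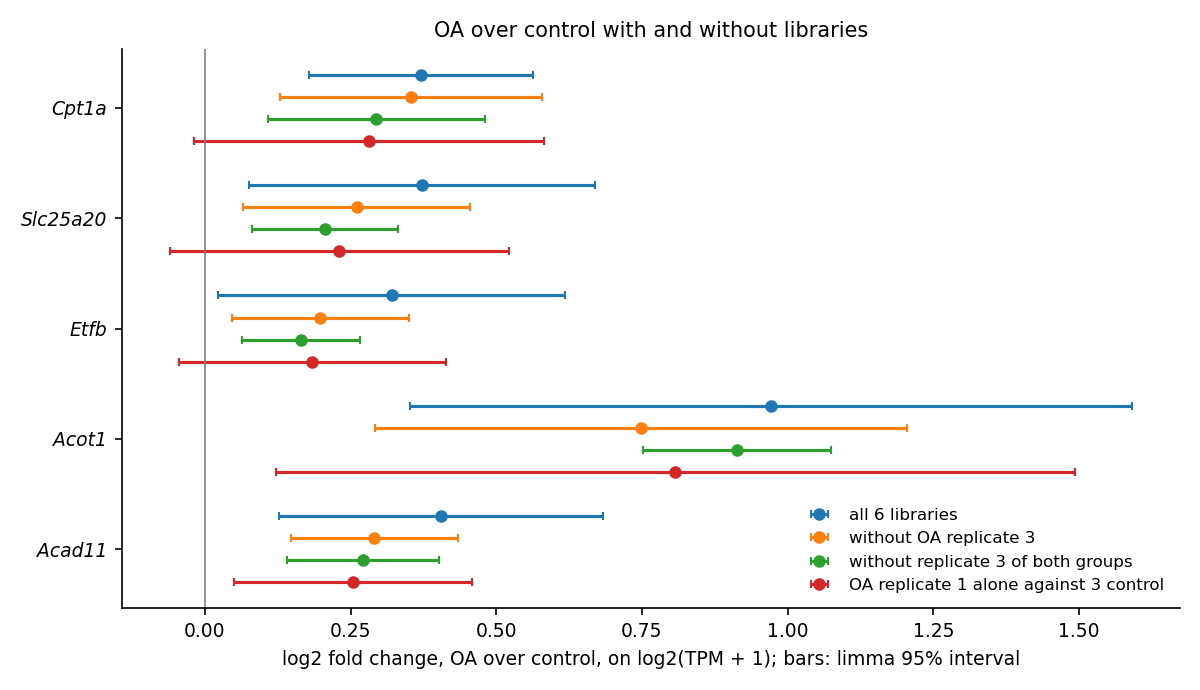
Log2 difference of OA over control on log2(TPM + 1) for each gene (points) with its 95% limma interval (bars), with all libraries and with libraries left out. All points lie above 0, and for each of the 5 genes the estimate with all libraries is the highest of the 4. The bars for OA replicate 1 alone rest on the spread of the control libraries only and cannot say whether a gene passes. For Cpt1a the estimates run between 0.28 and 0.37.

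The number of calls hinged on other libraries as well. Without control replicate 1, 0 of the 5 genes were called. At an unadjusted p under 0.05, 3 of 5 were higher, against 171 of all 559 listed genes (limma). Without control replicate 2, 0 were called, with 4 of 5 higher unadjusted, against 194 of 559 (limma). Without OA replicate 2, 0 were called, with 5 of 5 higher unadjusted, against 159 of 559 (limma). Without control replicate 3, Cpt1a and Acot1 were called, and without OA replicate 1 all 5 were, Etfb with an adjusted p of 0.0498 (limma). Of all listed genes, 0% were called higher without control replicate 1 and without OA replicate 2, 15.6% without control replicate 2, 21.3% without control replicate 3 and 31.7% without OA replicate 1. No difference of the 5 genes changed sign, which follows from groups that do not overlap.

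The levels of the 5 genes kept one order in all 6 libraries, Etfb above Cpt1a, Slc25a20, Acad11 and Acot1, and no neighbours in that order overlapped within a group. Within each library, Etfb, Slc25a20 and Acad11 kept nearly constant proportions. Etfb over Slc25a20 was 3.06, 2.99 and 3.09 in OA replicates 1, 2 and 3, against 3.21, 3.03 and 3.27 in the control libraries. Acad11 over Slc25a20 was 0.255, 0.258 and 0.260 in OA replicates 1, 2 and 3, against 0.251, 0.235 and 0.261 in the control libraries. These proportions overlapped between the groups. Acad11 over Etfb was 0.0834, 0.0863 and 0.0844 in OA replicates 1, 2 and 3, against 0.0781, 0.0775 and 0.0799 in the control libraries, and here the groups did not overlap. Slc25a20 over Cpt1a was less even, at 0.694, 0.654 and 0.824 in OA replicates 1, 2 and 3, against 0.704, 0.729 and 0.723 in the control libraries, and OA replicate 3 was the highest of the 6.

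Likeness of pattern was measured as the root mean square difference over the 6 libraries of log2(TPM + 1), each gene centred on its own mean. Of the 558 other listed genes, the nearest to Etfb were Slc25a20 (0.0433) and Acad11 (0.0472), and the nearest to Acad11 were Slc25a20 (0.0469) and Etfb. The nearest to Slc25a20 was Apoe (0.0236), the gene of a lipid-carrying protein secreted by macrophages, followed by Etfb and Acad11. Etfb had Apoe as its next neighbour (0.0526), and Acad11 had the beta-globin gene Hbb-bt (0.0594). Cpt1a had other neighbours, namely Pou2af1, a transcriptional coactivator gene of B cells (0.0194), Dusp6, a MAP kinase phosphatase gene (0.0254), and the cytokine gene Il1a (0.027), and Slc25a20 came at place 104. The nearest to Acot1 were Phyhd1 (0.198), Selenbp1 (0.227) and Lsmem1 (0.235), all far less alike. These distances describe 6 libraries in 2 groups and carry no test.

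Few other genes of fatty acid breakdown were listed. The 7 lists of enzymes and carriers, from activation through the carnitine shuttle, mitochondrial and peroxisomal beta-oxidation, electron transfer and thioesterases to ketone bodies, held 81 genes, of which 6 were listed. Of these, 5 rose, against 36% of all listed genes, 0 fell and 1 did not pass, and 5 of the 6 are the genes above. The sixth was Slc27a1, which encodes a fatty acid transport protein with acyl-CoA synthetase activity. Slc27a1 stood at 9.80, 11.04 and 14.74 TPM in OA replicates 1, 2 and 3, against 7.48, 8.52 and 7.21 TPM in the control libraries, with OA replicate 3 highest (log2 difference 0.54, SE 0.156, adjusted p = 0.0326, limma). Of 10 carnitine shuttle genes 2 were listed, and of 23 genes grouped as mitochondrial beta-oxidation 1 was, Acad11. Of 14 peroxisomal genes, 5 ketone body genes and 12 PPAR receptor and coactivator genes 0 were. A gene outside the table was not analysed here.

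Of 25 other PPAR target genes 5 were listed, of which 3 rose, against 36% of all listed genes, 0 fell and 2 did not pass. Plin2, Hilpda and Cd36, genes of lipid droplets and fatty acid uptake, rose 1.93-fold, 2.06-fold and 2.19-fold, more than Cpt1a, Slc25a20, Etfb and Acad11 differed. Pdk4, a kinase gene that restrains pyruvate oxidation, stood at 0.64, 1.51 and 18.83 TPM in OA replicates 1, 2 and 3, against 0.28 to 0.35 TPM in control libraries, and did not pass (adjusted p = 0.144, limma). Fabp3, the fatty acid binding protein gene of heart muscle, stood at 3.16, 47.12 and 578.87 TPM in OA replicates 1, 2 and 3, against 2.38 to 4.02 TPM in control libraries, and did not pass either (adjusted p = 0.11, limma). Fabp3 is itself on the list of heart muscle markers.

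Summed transcript levels of the markers of several other cell types differed between the groups too. Of 33 NK cell markers 17 were listed, of which 16 fell, against 40.1% of all listed genes, and 1, Itgam, which myeloid cells also express, rose; their summed level was 6054 to 7817 TPM in OA and 9400 to 11232 TPM in control. Of 39 monocyte, macrophage and dendritic cell markers 11 were listed, of which 9 rose, against 36% of all listed genes, and 2 fell, with summed levels of 6256 to 6587 TPM in OA and 5054 to 5602 TPM in control. Of 21 B cell and plasma cell markers 7 were listed, of which 6 rose, against the same 36%, and 1 did not pass, with 568 to 662 TPM in OA and 368 to 458 TPM in control. With libraries scaled to equal medians, 162 of all 559 listed genes rose and 82 fell. In that fit 9 NK cell markers fell and 0 rose, 6 of the 11 myeloid markers rose and 1 fell, and 6 B cell and plasma cell markers rose. The summed levels of these 3 lists did not overlap between the groups, and 0 of their listed genes was at 0 in any library. Of the other listed markers, 2 of T cells fell with the values as deposited. Of 3 granulocyte and mast cell markers, 2 rose and 1 fell, and 1 erythroid and megakaryocyte marker rose while 1 did not pass. Of all listed genes, 36% rose and 40.1% fell as deposited. In bulk RNA, fewer cells of a type and less RNA per cell cannot be told apart, and the part of other cells in the levels of the 5 genes was not tested.

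**Figure D4:**
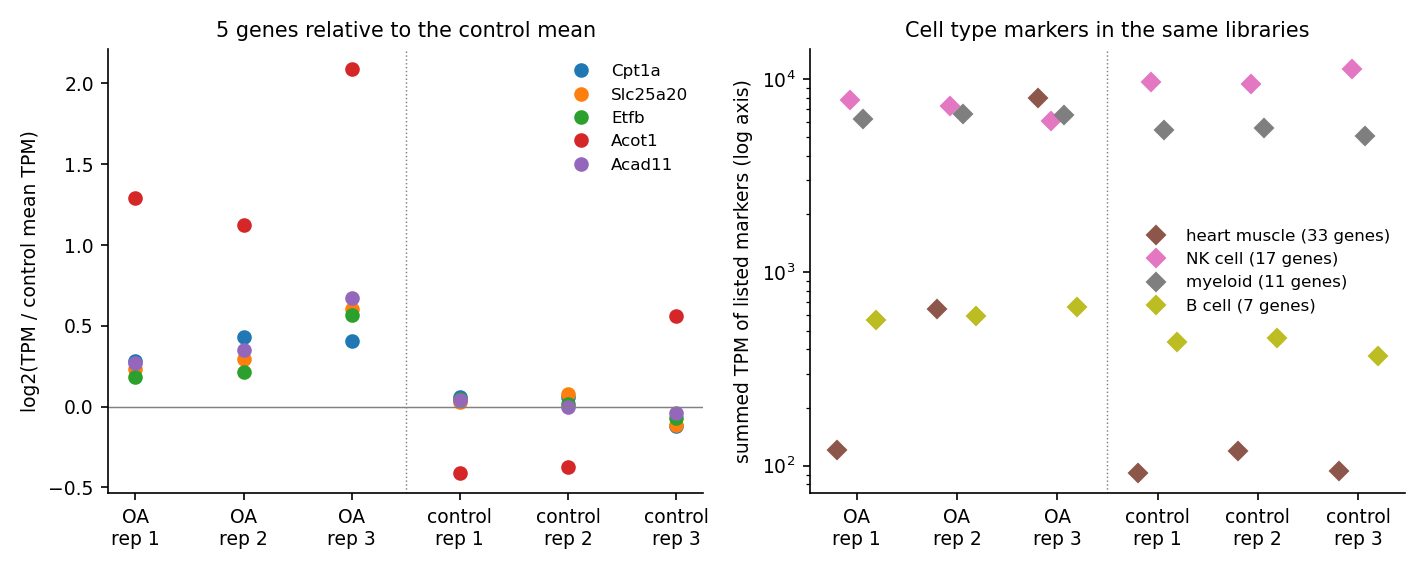
Left, log2 of each gene's TPM over its control mean in every library; right, summed TPM of the listed markers of 4 cell types on a log axis. The 5 genes lie above the line at 0 in all 3 OA libraries, and the heart muscle sum climbs to 7989 TPM in OA replicate 3 while it is 120.1 TPM in OA replicate 1.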

How the data were processed

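RNA-seq libraries of 3 OA and 3 control samples of splenic NK cells were compared, grouped by the treatment in their labels, with columns matched by sample title. Per the submitters' processing notes, Bowtie2, RSEM 1.3.1, DESeq2 1.4.5 and the build mm10 were used, with no role or order given. Per the file headers, the authors deposited TPM for each library and as a mean per group, log2 fold changes (OA over control) with a P value (p-value) and Q value for 559 genes, each with Q under 0.05. The listed genes summed to 121857 to 126392 TPM per library; read depth is unknown.

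TPM keeps no counts, so limma 3.58.1 (R 4.3.3) was run on log2(TPM + 1) of all 559 genes, with no filter and no covariate, two-sided, with Benjamini-Hochberg adjustment over all 559 and a threshold of 0.05. All 559 had already passed the authors' Q for this same comparison, so an adjusted p here does not account for the genes outside the list. The log2 scale with an added 1 understates changes of low genes. The fit was also run on simulated data with independent noise for each gene. The simulation held no selection by Q and no shift shared by genes of a library, so it does not test the fit under those conditions. Same-numbered libraries did not all deviate together. Correlations of deviations from the group means across genes were 0.327, -0.109 and -0.0808 for numbers 1, 2 and 3. Pairs with different numbers gave -0.399 to 0.35. The main fit has no block. Named genes were the 5 genes, every listed gene of 9 fatty acid lists, and the 3 nearest genes in pattern to each; 7 marker lists showed the cell types. The members and lists were chosen with earlier results of these data known. Sequences and coordinates come from RefSeq (GRCm38.p6) and GENCODE M21 (GRCm38, the same build as mm10), with all 5 genes matched by identifier or symbol. Alternatives covered added constants, level filters, median scaling, the replicate block, left-out libraries, the limma prior, heart muscle markers left out, and other thresholds; the fit without OA replicates 2 and 3 was added after the data were seen. Tables, permutation tests and plots were made in Python 3.11.15 with matplotlib 3.10.9, scipy 1.17.1 and pandas 2.3.3.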

Additional observations from a re-analysis of the deposited data

How the results depend on the processing

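The log2 differences of the 5 genes were above 0 under every alternative run. For other added constants, level filters and left-out libraries this was fixed in advance, because the groups do not overlap. Leaving out each library in turn gave 0 to 5 called genes of the 5 and 0 to 364 called of all listed genes, with log2 differences of 0.31 to 0.42 for Cpt1a, 0.26 to 0.44 for Slc25a20, 0.20 to 0.39 for Etfb, 0.75 to 1.14 for Acot1 and 0.29 to 0.48 for Acad11. With the replicate number as a block, 0 of the 5 genes and 0 listed genes passed in limma (at an unadjusted p under 0.05, 3 of the 5, and 149 higher and 89 lower of all); the differences stayed at 0.37 for Cpt1a and Slc25a20, 0.97 for Acot1 and 0.41 for Acad11, with fewer degrees of freedom. Without OA replicates 2 and 3, the differences were 0.28 for Cpt1a, 0.23 for Slc25a20, 0.18 for Etfb, 0.81 for Acot1 and 0.25 for Acad11. At an adjusted p under 0.01, 0 of the 5 and 1 listed gene passed, against 5 and 497 under 0.1. Libraries scaled to equal medians gave 4 of the 5 and 244 listed genes, 66.4% of them higher, against 425 and 47.3% as deposited; the cause was not tested. Etfb passed at 0.31 with a constant of 5, at 0.32 with a mean of at least 1 or 10 TPM, with a trended robust prior or without heart muscle markers, and at 0.17 without replicate 3 of both groups, as well as at 0.39 without OA replicate 1 and at 0.20 without OA replicate 3; the fit without replicate 3 of both groups gave 0.21 for Slc25a20 and 381 listed genes. For Etfb the adjusted p ranged from 0.0262 to 0.195 over all alternatives. Acot1 was left out by the filter at 10 TPM. The sequencing depth is unknown for all 5 genes.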
